A study of Homo sapiens with 9 samples.

Results

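MHC class I presentation genes are the 9 genes HLA-B, HLA-C, HLA-E, HLA-F, B2M, TAP1, TAP2, TAPBP and NLRC5, taken by name from a table of 58735 genes measured by RNA sequencing in HCT116, an established line of human colorectal carcinoma cells. The 9 libraries fell into 3 groups of 3. A20-WT are the cells the study calls wild type, and no source says whether they carried a control vector or met puromycin. In A20-KO cells TNFAIP3, the gene of the ubiquitin-editing enzyme A20, was targeted by CRISPR with a LentiCRISPR v2 vector and puromycin selection. A20-OE are A20-KO cells in which A20 was restored, named RE in the study, and the A20 vector its methods name is pCMV-3xFlag-A20. No source says whether the A20-KO line is 1 clone or whether replicates are separate cultures, so a p-value measures only the spread between these libraries. No cytokine or drug treatment of the sequenced cells is named.

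MHC class I molecules carry short peptides of a cell's own proteins to its surface, where CD8 T cells and natural killer cells read them. A heavy chain, encoded by an HLA gene, folds with the light chain beta-2-microglobulin. The peptide is pumped into the endoplasmic reticulum by the TAP1-TAP2 transporter and loaded with the help of tapasin. NLRC5 is a transactivator of class I genes, which also respond to interferon-driven factors and NF-kB, the pathway that A20 restrains. Tumors often lower this machinery, and colorectal tumors can lose it by mutation.

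The promoters are shown because the members carry, in different combinations, the motifs through which these factors are known to act. RefSeq sequences (build GRCh38.p14) of the 250 bases before the transcription start were found for 7 of the 9 members, which leaves out HLA-E and NLRC5. Both strands were searched for the interferon-stimulated response element core GAAANNGAA, the Y box CCAAT, the X2 box TGACGC, the cAMP response element TGACGTCA and the NF-kB consensus. Matches are in capitals, each sequence is written 5′ to 3′ on the sense strand, and positions are counted back from the start.

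HLA-B (chr6:31357180-31357429, minus strand): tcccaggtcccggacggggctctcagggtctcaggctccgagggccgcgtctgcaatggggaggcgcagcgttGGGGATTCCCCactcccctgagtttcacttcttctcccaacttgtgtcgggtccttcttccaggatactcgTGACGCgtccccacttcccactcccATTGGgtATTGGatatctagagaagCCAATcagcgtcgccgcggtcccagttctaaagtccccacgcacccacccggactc

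HLA-F (chr6:29723184-29723433, plus strand): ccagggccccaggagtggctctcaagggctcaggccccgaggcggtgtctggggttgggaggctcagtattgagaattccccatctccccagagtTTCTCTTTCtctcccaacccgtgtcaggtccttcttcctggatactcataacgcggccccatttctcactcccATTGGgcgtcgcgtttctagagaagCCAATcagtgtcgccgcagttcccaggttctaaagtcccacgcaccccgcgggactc

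B2M (chr15:44711267-44711516, plus strand): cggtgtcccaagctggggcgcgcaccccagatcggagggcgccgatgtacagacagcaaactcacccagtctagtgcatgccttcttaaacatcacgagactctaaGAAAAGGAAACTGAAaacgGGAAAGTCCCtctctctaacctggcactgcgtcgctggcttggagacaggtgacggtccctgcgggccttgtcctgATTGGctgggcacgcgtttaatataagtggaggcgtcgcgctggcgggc

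TAP2 (chr6:32838740-32838989, minus strand): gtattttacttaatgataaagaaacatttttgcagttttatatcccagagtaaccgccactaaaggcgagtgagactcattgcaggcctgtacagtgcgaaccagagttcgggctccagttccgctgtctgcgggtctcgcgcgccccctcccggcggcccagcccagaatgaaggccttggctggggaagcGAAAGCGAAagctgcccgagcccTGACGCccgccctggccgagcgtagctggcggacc

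HLA-B held 2 overlapping NF-kB matches between 177 and 167 bases upstream, an X2 box that begins 106 bases upstream and 3 Y boxes. HLA-F held an interferon element at 155 to 147 bases and 2 Y boxes, with no NF-kB or X2 match in this window. B2M held 2 overlapping interferon elements, an NF-kB match at 125 to 116 bases and 1 Y box. TAP2 held an interferon element at 58 to 50 bases and an X2 box at 35 to 30. Over the 7 promoters the GAAANNGAA core, the Y box and the NF-kB consensus each occurred in 5. The X2 box occurred in 3 and the cAMP response element in 0. HLA-B and HLA-C had no GAAANNGAA match. Variants of the interferon element were not searched, so a promoter without a match may still hold one. Of 35116 promoters of the same length, 6.88% held the interferon element, 32% the Y box, 9.96% the NF-kB consensus, 7.67% the X2 box and 1.65% the cAMP response element. A match describes letters only, and no binding was measured.

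Values are FPKM, the fragments of a gene divided by its length and by a depth of its library. That depth was not the plain total: total reads over the depth implied by FPKM ran from 0.95 to 1.066. Every nonzero value was a whole number of reads (within 0.1 of a read), which gave 23406222 to 24963691 reads per library. Changes are log2 fold changes of FPKM + 0.1, a scale that understates the change of low genes, and limma tested them in the 21636 genes whose FPKM averaged 0.1 or more, all 9 members among them. Genes whose Benjamini-Hochberg adjusted p was under 0.05 are said to be called. The mRNA of the targeted gene was not lower in A20-KO than in A20-WT. TNFAIP3 was at 58.7, 66.5 and 56.5 FPKM in A20-OE, against 0.869, 0.80 and 0.736 in A20-WT and 1.93, 2.16 and 1.04 in A20-KO. The libraries labelled A20-KO thus held more TNFAIP3 mRNA than A20-WT (log2 fold change 0.95, limma adjusted p = 0.018). These values are mRNA and do not measure A20 protein. The study shows the A20 expression level of its knockout and rescue cells separately. Every direction given for A20-KO rests on its label. Mitochondrially encoded genes took 7.52% to 10.1% of reads in A20-WT, 9.18% to 11.9% in A20-KO and 12.0% to 13.9% in A20-OE, and the part of this shift in the results was not tested.

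The cell type was checked by marker genes. The epithelial adhesion gene EPCAM stood at 96.0 to 140.3 FPKM, and the intestinal factor CDX2 at 3.55 to 7.16. VIL1, a brush border gene, was at 0 to 0.0556 FPKM. The 8 leukocyte markers summed to 0.727 to 0.827 FPKM in A20-WT, 0.768 to 1.35 in A20-KO and 0.525 to 1.14 in A20-OE, and PTPRC, the pan-leukocyte marker, had at most 5 reads. Of the 8, 4 were tested and 0 were called by limma in any comparison, with PTPRC, CD3E and MS4A1 too low to test. In the fibroblast and endothelial list COL1A1 was called higher in both groups against A20-WT, while its partner COL1A2 had at most 1 read. In bulk RNA a change in every cell cannot be told apart from a change in the share of cells with high levels.

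All 9 genes were expressed in A20-WT cells, across a wide range of levels per length. HLA-C was highest at 134 ± 35.3 FPKM (SD, n = 3). HLA-E (49.3 ± 6.4) and HLA-B (43.9 ± 4.91) followed, and their library ranges overlapped. B2M, TAPBP, TAP1, TAP2, HLA-F and NLRC5 followed in that order, from 33.9 ± 2.54 for B2M down to 1.21 FPKM for NLRC5, with no overlap between neighbours. In the libraries labelled A20-KO the order changed at 1 place: HLA-F, at 4.58 FPKM, moved past TAP2, at 3.76, although their ranges overlapped there. In A20-OE the HLA-F and TAP2 ranges no longer overlapped, and those of HLA-E with HLA-B and of HLA-B with B2M did.

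**Figure D1:**
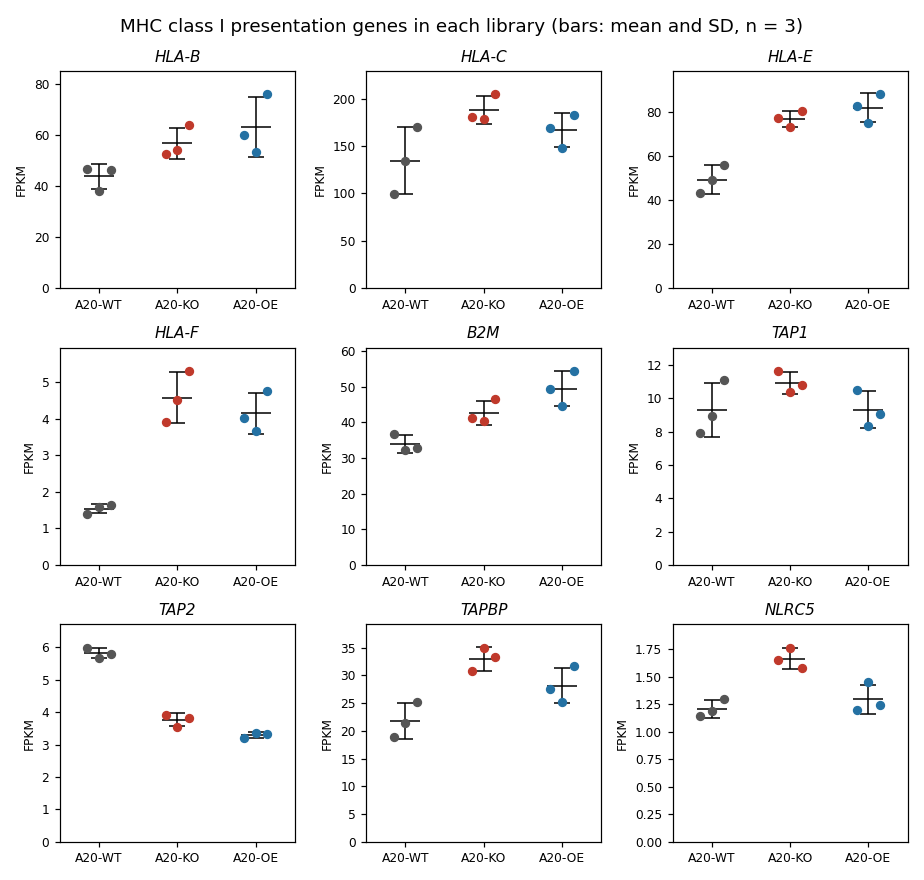
FPKM of each gene (vertical axes, linear, from 0) in every library (points), by group, with the mean and SD of 3 libraries as bars. HLA-F, HLA-E and TAPBP are higher in A20-KO than in A20-WT, TAP2 is lower, and the A20-OE values lie near those of A20-KO rather than A20-WT for HLA-F, HLA-E and TAP2.

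Set against A20-WT, the libraries labelled A20-KO held 2.83-fold more mRNA of the class I heavy chain HLA-F, HLA-E and TAPBP rose by a smaller amount, and TAP2 fell. With NLRC5 at the edge of the threshold, 4 of the 9 members were called higher and 1 lower, against 11.3% of all genes called higher and 11.0% called lower. Only HLA-F also passed a 2-fold change, as did 6.99% of all genes. The libraries of both groups did not overlap for 8 members, 7 of them higher in A20-KO, against 38.1% of all genes. The median log2 fold change was 0.43 over the members and -0.01 over all genes.

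From the libraries labelled A20-KO to those of A20-OE, 0 of the 9 members were called by limma, against 4.43% of all genes called higher, 4.54% called lower and 2.39% past 2-fold. At an unadjusted p under 0.05 there was 1 member, NLRC5, and limma-voom on the recovered reads likewise called 0. The groups did not overlap for 2 members, NLRC5 and TAP2, against 35.4% of all genes. The split of all called genes depended on the scaling between libraries: 49.4% of them were higher as deposited and 34.1% after scaling to total reads. Between A20-OE and A20-WT, 4 members were called higher and 1 lower, against 15.7% and 15.4% of all genes. HLA-F alone passed 2-fold, as did 11.9% of all genes, and 6 members did not overlap, against 45.3%. The last 2 comparisons and the first share libraries, so their values are set side by side and are not independent.

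**Figure D2:**
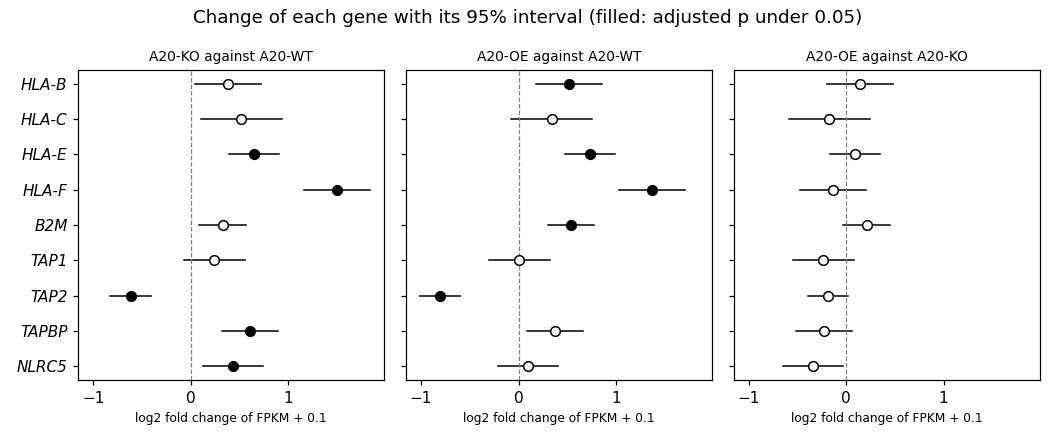
Change of each gene in the 3 comparisons as the log2 fold change of FPKM + 0.1 (horizontal axis) with its 95% interval (lines), filled where the limma adjusted p was under 0.05. HLA-F stands apart at 1.5 and 1.37 against A20-WT, TAP2 lies below 0 at -0.62 and -0.80, and every interval but that of NLRC5 includes 0 between A20-OE and A20-KO.

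HLA-F, a nonclassical heavy chain recognised by natural killer cell receptors, had the largest change among the members. It was at 1.39, 1.59 and 1.65 FPKM in A20-WT, 3.90, 4.52 and 5.31 in A20-KO and 4.03, 3.67 and 4.76 in A20-OE. Every A20-KO and A20-OE library lay above every A20-WT library. The log2 fold change was 1.5 (95% interval 1.16 to 1.84, limma adjusted p = 0.00038) in A20-KO against A20-WT, a 2.83-fold difference. It was 1.37 (1.03 to 1.71, adjusted p = 0.00022) in A20-OE against A20-WT. From A20-KO to A20-OE it was -0.13 (-0.47 to 0.21, adjusted p = 0.62). HLA-F (6:29722775-29738528, plus strand, GRCh38) had 150 to 179 reads in A20-WT. It shares 535 exonic bases with its antisense gene HLA-F-AS1, which had 88 to 96 reads in A20-WT, 99 to 112 in A20-KO and 166 to 190 in A20-OE. The sources do not say whether counting used strand, so reads of the shared bases cannot be assigned to either gene with certainty. HLA-F also shares 701 exonic bases with AL645939.1 and 257 with RPL23AP1. Both lie on the opposite strand and had 0 reads in every library.

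HLA-E, the nonclassical chain that presents leader peptides of other class I chains to the inhibitory receptor NKG2A, was expressed far above HLA-F. It stood at 43.0, 49.0 and 55.8 FPKM in A20-WT, 77.4, 73.1 and 80.3 in A20-KO and 82.6, 75.1 and 88.1 in A20-OE. The A20-WT libraries were again the 3 lowest. HLA-E rose by a log2 fold change of 0.65 (0.39 to 0.91, limma adjusted p = 0.0045) in A20-KO and of 0.74 (0.48 to 1.00, adjusted p = 0.0014) in A20-OE, each against A20-WT. From A20-KO to A20-OE the difference was 0.09 (-0.17 to 0.35, adjusted p = 0.67).

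The classical chains HLA-B and HLA-C present peptides to CD8 T cells, and their changes were less certain. HLA-C was at 99.4, 134 and 170 FPKM in A20-WT, 181, 179 and 205 in A20-KO and 169, 148 and 183 in A20-OE. The A20-WT libraries spread most, and A20-WT replicate 3 nearly reached the A20-KO values. The log2 fold change of HLA-C was 0.52 in A20-KO against A20-WT (0.10 to 0.93, limma adjusted p = 0.076) and 0.34 in A20-OE against A20-WT (-0.08 to 0.76, adjusted p = 0.20). Without A20-WT replicate 3, HLA-C was called in both, with log2 fold changes of 0.70 (adjusted p = 0.0175) and 0.53 (adjusted p = 0.041). Over the 21 alternatives the adjusted p of HLA-C ran from 0.0175 to 0.481 in the first and from 0.041 to 0.588 in the second.

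HLA-B was at 46.9, 38.2 and 46.5 FPKM in A20-WT, 52.6, 54.3 and 63.9 in A20-KO and 60.2, 53.2 and 76.2 in A20-OE. All libraries of both other groups lay above A20-WT. The log2 fold change of HLA-B was 0.38 (0.04 to 0.72, limma adjusted p = 0.11) in A20-KO and 0.52 (0.18 to 0.86, adjusted p = 0.028) in A20-OE, each against A20-WT. The second call was lost in 8 of the 21 alternatives, with an adjusted p of 0.00701 to 0.118 over all of them. Among the 8 were the fits without A20-WT replicate 2 (adjusted p = 0.101), A20-OE replicate 1 (0.0677) and A20-OE replicate 3 (0.0874). From A20-KO to A20-OE the difference was 0.14 for HLA-B (-0.20 to 0.48) and -0.18 for HLA-C (-0.59 to 0.24), neither called. A correction for GC content, added after seeing the data, left 0.11 for HLA-B and 0.09 for HLA-C in A20-KO against A20-WT. The GC content of their longest annotated transcripts is 58.9% and 62.7%. HLA genes share long stretches of sequence and the annotated spans of HLA-B and HLA-C overlap on the same strand, so the split of reads among the heavy chains is uncertain. HLA-B also shares 542 exonic bases with AL671883.2 on the opposite strand, which had 0 reads in every library.

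B2M, the light chain of assembled class I molecules, lies on chromosome 15, away from the HLA genes. It was at 36.9, 32.2 and 32.7 FPKM in A20-WT, 41.2, 40.2 and 46.4 in A20-KO and 49.2, 44.6 and 54.4 in A20-OE. Both other groups lay above A20-WT in every library, and A20-KO and A20-OE overlapped. B2M rose in A20-OE against A20-WT (log2 fold change 0.54, 0.30 to 0.78, limma adjusted p = 0.0047). In A20-KO against A20-WT it missed the threshold at 0.33 (0.09 to 0.57, adjusted p = 0.055), and it was called there in 7 of the 21 alternatives, without A20-WT replicate 1 among them (0.39, adjusted p = 0.0353). With the GC correction the same difference was 0.55 (adjusted p = 0.00687), within a range of 0.0019 to 0.153 over the alternatives. The GC content of the longest annotated B2M transcript, 40.6%, is the lowest of the 9.

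The sum of the 4 heavy chains divided by B2M, a ratio of FPKM within each library, was 5.17, 6.91 and 8.38 in A20-WT. It was 7.63, 7.72 and 7.64 in A20-KO and 6.42, 6.28 and 6.47 in A20-OE. The A20-WT libraries spread more widely than the other two groups together. From A20-KO to A20-OE the ratio fell by 1.27, with p = 0.1 by exact permutation (two-sided), the lowest p possible with 3 libraries a group. A20-KO against A20-WT gave p = 0.5 and A20-OE against A20-WT p = 0.7 in the same exact permutation test.

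TAP1 and TAP2 form the peptide transporter as a pair, and only TAP2 was called. TAP2 was at 5.99, 5.68 and 5.80 FPKM in A20-WT, 3.92, 3.54 and 3.83 in A20-KO and 3.19, 3.35 and 3.32 in A20-OE. The groups did not overlap in any comparison, and TAP2 was the sole member called lower against A20-WT. Its log2 fold change was -0.62 (-0.83 to -0.41, limma adjusted p = 0.0022) in A20-KO and -0.80 (-1.01 to -0.60, adjusted p = 0.00028) in A20-OE, each against A20-WT. From A20-KO to A20-OE it was -0.19 (-0.40 to 0.02, adjusted p = 0.24), and the GC correction gave -0.27 (adjusted p = 0.0355, within 0.0355 to 0.453 over the alternatives). Of the exonic bases of TAP2 (6:32821833-32838780, minus strand), 32.3% are shared with AL669918.1 on the same strand, which had 0 reads in every library. How reads of shared bases were counted is not stated.

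TAP1 was at 7.93, 8.92 and 11.1 FPKM in A20-WT, 11.6, 10.4 and 10.8 in A20-KO and 10.5, 8.34 and 9.06 in A20-OE. The groups overlapped in every comparison. The log2 fold change of TAP1 was 0.24 (-0.07 to 0.55, limma adjusted p = 0.25) in A20-KO and 0.01 (-0.31 to 0.32, adjusted p = 0.99) in A20-OE, each against A20-WT. Under 7 of the 21 alternatives the second value was below 0. TAP1 and TAP2 are neighbours on chromosome 6 of the minus strand, and no test of the difference between their changes was made.

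TAPBP encodes tapasin, which bridges the transporter and the empty class I molecule. It was at 18.8, 21.3 and 25.1 FPKM in A20-WT, 30.7, 35.0 and 33.2 in A20-KO and 27.6, 25.2 and 31.6 in A20-OE. A20-WT was below A20-KO in every library, and the lowest A20-OE library lay just above the highest A20-WT one. TAPBP rose by a log2 fold change of 0.60 (0.32 to 0.89, limma adjusted p = 0.010) in A20-KO against A20-WT. In A20-OE against A20-WT it was 0.37 (0.08 to 0.66, adjusted p = 0.053), and it was called there in 6 of the 21 alternatives, without A20-WT replicate 3 among them (0.48, adjusted p = 0.0208, within 0.0166 to 0.169). From A20-KO to A20-OE TAPBP was -0.23 (-0.52 to 0.06, adjusted p = 0.30).

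NLRC5, the class I transactivator, was the least abundant member. It was at 1.14, 1.19 and 1.29 FPKM in A20-WT, 1.65, 1.76 and 1.58 in A20-KO and 1.20, 1.45 and 1.24 in A20-OE. The A20-KO libraries were the 3 highest, and A20-OE overlapped A20-WT. Its log2 fold change was 0.43 in A20-KO against A20-WT (0.13 to 0.74, limma adjusted p = 0.0496), -0.34 from A20-KO to A20-OE (-0.65 to -0.03, adjusted p = 0.16) and 0.09 in A20-OE against A20-WT (-0.21 to 0.40, adjusted p = 0.66). The first call was lost in 16 of the 21 alternatives, among them the removal of any 1 of the 9 libraries (adjusted p from 0.055 to 0.126) and the GC correction (log2 fold change 0.25, adjusted p = 0.221).

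**Figure D3:**
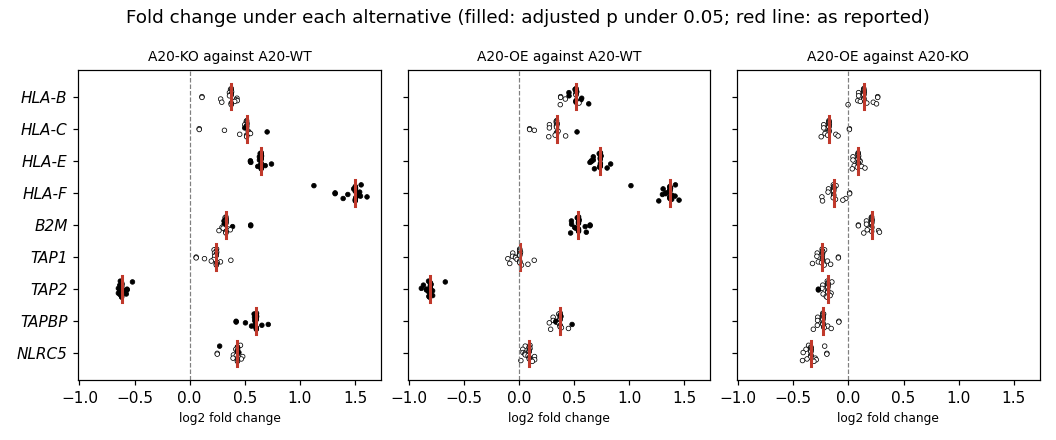
Log2 fold change of each gene (horizontal axis) under each of the 21 alternative settings (points, filled where called) and as reported (red lines). HLA-E, HLA-F, TAP2 and TAPBP in A20-KO, and HLA-E, HLA-F, TAP2 and B2M in A20-OE, stayed called against A20-WT in all 21, while NLRC5 and HLA-B lost calls.

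Over the 9 libraries, each member's profile was set beside the mean of the other members, as a description over libraries that share groups and depth. Pearson's r was 0.96 for TAPBP, 0.90 for HLA-C and HLA-F, 0.89 for HLA-E, 0.70 for HLA-B, 0.58 for B2M, 0.57 for NLRC5 and 0.54 for TAP1. TAP2 ran opposite to the rest at -0.84. The 5 genes whose profiles were most like the members' mean were ECHDC3 (r = 0.992), PLTP (0.991), CERS4 (0.990), AP1M2 (0.988) and FBXW4 (0.988).

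Other genes of the pathway moved in both directions. Of 57 tested genes in 8 lists, 7 were called higher and 7 lower in A20-KO against A20-WT, with a median log2 fold change of 0.07. That is 12.3% in each direction, against 11.3% and 11.0% of all genes. In A20-OE against A20-KO, 1 was called higher (1.75%) and 6 lower (10.5%), against 4.43% and 4.54% of all genes. For A20-OE against A20-WT the counts were 7 higher (12.3%) and 16 lower (28.1%), against 15.7% and 15.4%. These all-gene shares are the background for the list counts below.

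Among the proteasome genes that cut the peptides, PSME1, a subunit of the PA28 activator, rose from 43.0 to 70.7 FPKM in A20-KO (log2 fold change 0.72, limma adjusted p = 0.010). PSMB9, an immunoproteasome subunit that lies beside TAP1, rose from 1.67 to 2.85 FPKM (0.74, adjusted p = 0.024). The other 3 of 5 in this list were not called there. PSME2, the partner of PSME1, fell from A20-KO to A20-OE (-0.70, adjusted p = 0.024). Of 6 cytosolic peptidases that trim or destroy peptides, 3 fell in A20-KO against A20-WT, as did 11.0% of all genes: TPP2 (-0.66), BLMH (-0.64) and NRDC (-0.45). NPEPPS rose from A20-KO to A20-OE (1.19, adjusted p = 0.00072), from 18.0 to 41.1 FPKM.

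Of 10 genes for loading and trimming in the endoplasmic reticulum, 0 were called by limma in A20-KO against A20-WT. In A20-OE against A20-WT 2 fell: the chaperone calreticulin, CALR (-0.75, adjusted p = 0.0015), from 339 to 201 FPKM, and UGGT1 (-0.55, adjusted p = 0.013), which checks glycoprotein folding. CALR also fell from A20-KO to A20-OE (-0.51, adjusted p = 0.034). The trimming enzymes ERAP1 and ERAP2 were not called in any comparison, at 0.805 to 1.67 and 0.166 to 0.461 FPKM. Of 3 tested class I-like chains, 1 was higher in A20-KO against A20-WT: FCGRT, the neonatal Fc receptor chain (1.30, adjusted p = 0.0044, 0.227 to 0.710 FPKM). MR1, which presents vitamin metabolites, rose in A20-OE against A20-WT (0.78, adjusted p = 0.014). None of the 5 genes for removing class I from the surface was called in any comparison.

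Of 12 interferon signalling genes, 1 was called higher in A20-KO against A20-WT, where 11.3% of all genes were: STAT2, a factor that binds interferon elements, which rose from 8.61 to 14.9 FPKM (log2 fold change 0.79, limma adjusted p = 0.00047). It stood at 15.4 FPKM in A20-OE. IRF9 (0.85, adjusted p = 0.036) and the receptor chain IFNGR1 (0.52, adjusted p = 0.019) were also called higher in A20-OE against A20-WT, and the kinase TYK2 lower (-0.48, adjusted p = 0.019). TYK2 (-0.54, adjusted p = 0.034) and IRF2 (-0.46, adjusted p = 0.047) fell from A20-KO to A20-OE. IRF1, a direct activator of class I promoters, was at 1.38 to 1.79 FPKM over all libraries and was not called in any comparison. Of 12 tested genes of the X and Y box complexes and NF-kB, RELB (0.95, adjusted p = 0.0071), NFKB2 (0.55, adjusted p = 0.014) and RFX5 (0.47, adjusted p = 0.016) were higher in A20-KO against A20-WT. NFKB1 was lower (-0.53, adjusted p = 0.0085) and fell again from A20-KO to A20-OE (-0.59, adjusted p = 0.014). RELA (0.65, adjusted p = 0.0069) and NFKB2 (0.65, adjusted p = 0.0044) were the 2 of the 12 called higher in A20-OE against A20-WT. Called lower there were 5: NFKB1 (-1.12), RFXAP (-0.58) and the Y box subunits NFYA, NFYB and NFYC (-0.29, -0.82 and -0.50).

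The polycomb genes, whose products are known to repress class I and class II genes in some tumors, were mostly lower in both modified groups. Of the 4, 3 were called lower against A20-WT in each, where 11.0% and 15.4% of all genes were. A link between them and the class I or class II changes was not tested. SUZ12 was at 22.6, 17.0 and 14.0 FPKM in A20-WT, 7.47, 9.01 and 6.50 in A20-KO and 7.64, 8.06 and 7.55 in A20-OE. Its log2 fold change was -1.20 in A20-KO and -1.17 in A20-OE against A20-WT (limma adjusted p = 0.0020 and 0.0012). EED fell by 0.63 and 0.72 on the log2 scale in the same comparisons (adjusted p = 0.0067 and 0.0021). EZH2, a catalytic polycomb subunit, fell from 23.9 to 16.8 FPKM in A20-KO (-0.51, adjusted p = 0.0035) and on to 11.2 in A20-OE (-0.58 from A20-KO, adjusted p = 0.0062). PCGF1, the remaining gene of the list, was not called.

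The chains of MHC class II, which present to CD4 T cells and are usually made by professional antigen-presenting cells, rose as well. Of 5 tested class II genes, 5 were called higher against A20-WT in both A20-KO and A20-OE, where 11.3% and 15.7% of all genes were, with median log2 fold changes of 1.26 and 1.04. HLA-DRA was at 2.96, 3.13 and 4.12 FPKM in A20-WT, 10.6, 10.1 and 10.7 in A20-KO and 9.49, 8.97 and 10.5 in A20-OE (1.61 in A20-KO against A20-WT, limma adjusted p = 0.00018). HLA-DPB1 was at 0.101 to 0.287 FPKM in A20-WT and at 0.772 to 1.26 in A20-KO (1.94, adjusted p = 0.0025). HLA-DPA1 (1.26, adjusted p = 0.0068), CD74 (1.02, adjusted p = 0.030) and HLA-DRB1 (0.97, adjusted p = 0.041) rose from levels under 1 FPKM. Reads in A20-WT were few: 7 to 20 for HLA-DPB1, 15 to 23 for HLA-DPA1, 10 to 12 for CD74 and 14 to 23 for HLA-DRB1. The class II calls were not run under the alternatives. HLA-DQA1 and HLA-DQB1, the remaining class II genes of the list, were too low to test. CIITA, the class II transactivator and a relative of NLRC5, was at 0.0198 to 0.064 FPKM and was too low to test. In A20-OE against A20-KO, 0 of the 5 were called by limma.

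**Figure D4:**
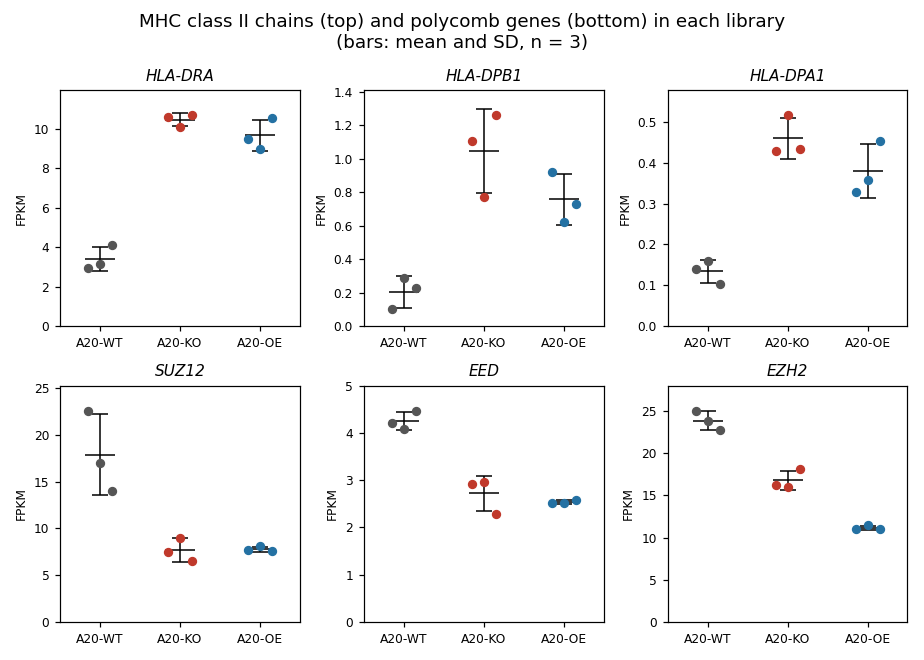
FPKM of 3 MHC class II chains (top) and 3 polycomb genes (bottom) in every library (points), by group, with mean and SD (n = 3) as bars and axes from 0. The class II chains are higher and the polycomb genes lower in both A20-KO and A20-OE than in A20-WT, with no overlap.

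**Figure D5:**
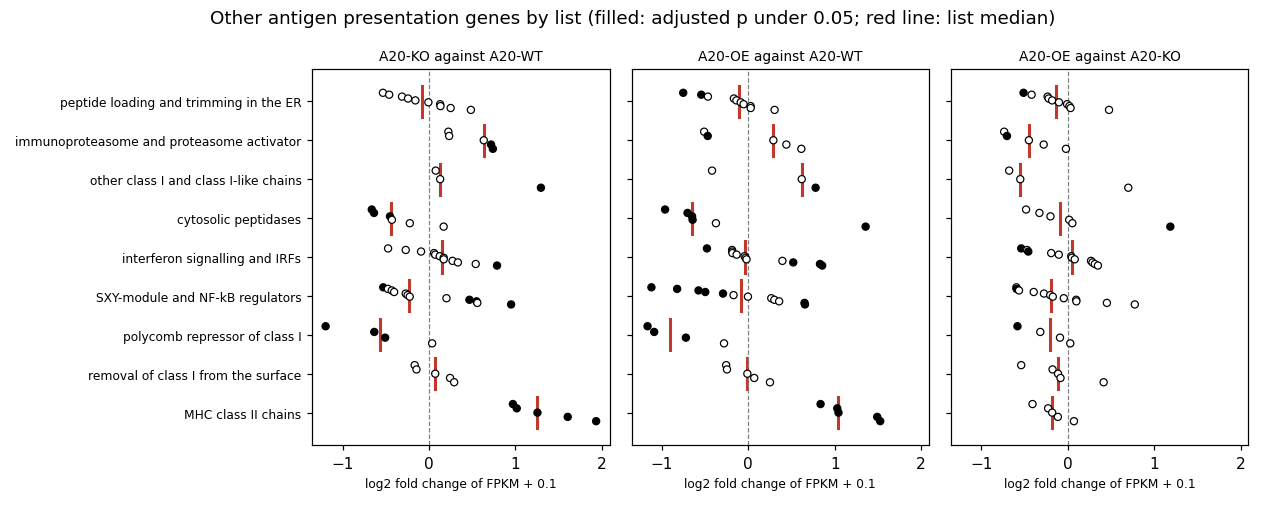
Log2 fold change of FPKM + 0.1 (horizontal axis) of every tested gene in 9 lists (points, filled where the limma adjusted p was under 0.05; red lines are list medians). The MHC class II list is the one in which every tested gene was called against A20-WT, with medians of 1.26 and 1.04 against A20-WT.

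The HLA, TAP and TAPBP members lie within the major histocompatibility complex on chromosome 6. Of 108 other tested protein-coding genes between HLA-F and TAPBP, 27.8% were called higher and 8.33% lower in A20-KO against A20-WT, with a median log2 fold change of 0.25. The shares over all genes were 11.3% and 11.0%. Beyond the class II genes of the list, those past 2-fold were HLA-DOA (1.41), a further class II chain, COL11A2 (2.08), TNXB (1.5), LY6G6C (1.43) and MPIG6B (1.06), all higher. In A20-OE against A20-KO, 0.926% were called higher and 13.9% lower, against 4.43% and 4.54% of all genes, with a median of -0.22. The heat shock genes HSPA1A (-2.14) and HSPA1B (-1.77) fell past 2-fold there, and as near-identical copies their reads are hard to separate. For A20-OE against A20-WT, 21.3% were higher and 17.6% lower, against 15.7% and 15.4% of all genes. Past 2-fold there, 12 were higher and 5 lower, where 11.9% of all genes passed 2-fold in either direction. Beyond class II genes of the list, the higher ones were LY6G6C (2.29), COL11A2 (2.14), PSORS1C1 (1.63), TNXB (1.62), RNF39 (1.31), MPIG6B (1.13), GTF2H4 (1.05) and VWA7 (1.05). The lower ones were HSPA1A (-2.045), HSPA1B (-1.77), TUBB (-1.57), TCF19 (-1.54) and MICB. MICB, a class I-like ligand of the receptor NKG2D, fell from 18.7 to 8.43 FPKM (-1.14, limma adjusted p = 3.0e-05).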

How the data were processed

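RNA was measured in 9 libraries of HCT116 cells, 3 per group, grouped by their labels. Per the labels and methods, the authors selected poly-A mRNA, read 150 bp pairs, aligned them with HISAT2 2.0.5, counted reads per gene with featureCounts 1.5.0-p3 and deposited FPKM. The genome build is not given in the sources used here. For 58724 of 58735 genes the coordinates are those of GENCODE 29 (GRCh38). Total reads over the depth implied by FPKM ran from 0.95 to 1.066, so the values carry a scaling between libraries. Intervals cover the spread between libraries.

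FPKM are not counts, so limma 3.58.1 (R 4.3.3) was fitted to log2(FPKM + 0.1) with a variance trend, 3 groups in one fit, at a mean FPKM of at least 0.1. The heavy chain ratio was tested by exact permutation. Members and lists were chosen with earlier results of these data known. Named were the members, TNFAIP3, list genes that were called or define their list, the 5 most alike genes and genes between HLA-F and TAPBP past 2-fold; 1 list gene is not reported here and was left out of the list counts. ERAP1, ERAP2, IRF1 and PCGF1, which were not called, were named after their values were seen. Alternatives were pseudocounts of 0.01 and 1, no filter or a mean FPKM of at least 1, other scalings, no variance trend, a fit of 2 groups, a replicate block, limma-voom on recovered reads and each library left out. GC corrections in 50 bins were added after seeing the data. The code of the fit was checked on simulated counts with the same relative spread for all genes and scaling to total reads. That setting is simpler than these data, so the check does not measure how well the fit suits them.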

Additional observations from a re-analysis of the deposited data

How the results depend on the processing

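Of 567 member values under an alternative (9 genes, 3 comparisons and 21 settings each), 511 kept their direction and their side of the threshold, 24 lost a call, 20 gained one and 12 changed sign, none of those 12 called. The sign changes from A20-KO to A20-OE were HLA-B without A20-OE replicate 3 (-0.003162, against up to 0.25 with another library left out) and, with the GC correction, with or without the replicate block, HLA-C (0.0092) and HLA-F (0.011). In A20-OE against A20-WT, TAP1 turned to -0.0573 with total-read scaling, -0.0589 with limma-voom, -0.0321 with the GC correction with or without the block, -0.10 without A20-WT replicate 1, -0.018 without A20-WT replicate 2 and -0.084 without A20-OE replicate 1, against up to 0.14 with another library left out. The causes were not tested.

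With 1 library left out, 4 to 5 members were called in A20-KO against A20-WT, 4 to 7 in A20-OE against A20-WT (7 without A20-WT replicate 3) and 0 in A20-OE against A20-KO. The GC correction called 1 member there, TAP2, with or without the block. Pathway genes called in A20-KO against A20-WT numbered 10 to 16 with 1 library left out, 9 with no filter and 23 with the GC correction and the block, in place of 14. In A20-OE against A20-KO they numbered 2 to 13 with 1 library left out, 3 with no filter or no variance trend, 11 with only the 2 groups, 14 with limma-voom, 16 with the GC correction and 23 with it and the block, in place of 7. In A20-OE against A20-WT 16 to 25 were called with 1 library left out, in place of 23.

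Over all genes, calls in A20-KO against A20-WT were 4816, with 2972 for no filter, 3060 for the 2 groups alone and 3110 to 4964 with 1 library left out (3110 without A20-KO replicate 1). Past 2-fold they were 1512, with 472 at a pseudocount of 1, 931 at a mean FPKM of at least 1 and 1186 to 1765 with 1 library left out. In A20-OE against A20-KO the 1940 calls became 801 with no filter, 1224 with no variance trend, 3397 with the GC correction and 4019 with it and the block. With 1 library left out they ran from 454 (A20-OE replicate 1) to 3237 (A20-WT replicate 1), with 1161 without A20-WT replicate 2, 613, 1169 and 923 without A20-KO replicates 1, 2 and 3, and 529 and 937 without A20-OE replicates 2 and 3. The 517 calls past 2-fold became 155 at a pseudocount of 1, 235 with no filter, 289 at a mean FPKM of at least 1 and 242 to 612 with 1 library left out. In A20-OE against A20-WT, 4828 to 7000 genes were called with 1 library left out, in place of 6735. The 2571 past 2-fold became 976 at a pseudocount of 1, 1555 at a mean FPKM of at least 1 and 2266 to 2568 with 1 library left out.

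The heavy chain to B2M difference from A20-KO to A20-OE was -1.10 with HLA-B and HLA-C alone, and -1.32 to -1.22 with 1 library left out. It ran from 0.0193 to 1.62 in A20-KO against A20-WT and from -1.25 to 0.347 in A20-OE against A20-WT.

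The replicate numbers were not found to pair the libraries: same-numbered libraries deviated from their group means with correlations of -0.027 to 0.121, over 0.1 in 1 of 9 pairs, and 4 of 9 libraries correlated best with their own number. With the replicate block, 7, 0 and 6 members were called in A20-KO against A20-WT, A20-OE against A20-KO and A20-OE against A20-WT, and 17, 10 and 25 pathway genes.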
